A study of Mus musculus with 9 samples.

Results

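The genes of prostaglandin synthesis, breakdown and reception were followed in inflamed mouse skin held with or without mechanical stretch. The set was 10 genes: Ptgs1, Ptgs2, Ptges, Ptgds, Ptgis, Tbxas1, Hpgd, Ptger2, Ptger3 and Ptger4, each taken from the array feature that carries its symbol. Of these, 9 had a named feature, 1 each, among 19505 named genes, and Ptgs1 was not analysed here because no feature was named for it. All skin came from the back of C57BL/6J mice aged 8 weeks, after hair removal, and all of it received 5% imiquimod cream daily for 7 days. Imiquimod is a Toll-like receptor agonist that produces a psoriasis-like dermatitis in mice. In the stretch group (IMQ+F, n = 5) a plastic device glued to the skin was elongated by 10 mm on the first day, and in the no-stretch group (IMQ+N, n = 4) the skin was not stretched. The comparison asks how gene expression in the inflamed skin differs when it is also under tension. The protocol does not say whether the no-stretch skin also carried the glued device, and no skin without imiquimod was analysed here. The labels do not tie each array to a separate mouse. The p-values here therefore speak only of the variation among these arrays, some of which may be technical.

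Prostanoids are lipid mediators made from arachidonic acid, which phospholipases free from membranes. The cyclooxygenases, Ptgs1 (largely constitutive) and Ptgs2 (inducible), turn it into prostaglandin H2. Terminal synthases then make one product each: Ptges prostaglandin E2, Ptgds prostaglandin D2, Ptgis prostacyclin and Tbxas1 thromboxane A2. Hpgd starts the breakdown of prostaglandin E2, and Ptger2, Ptger3 and Ptger4 encode receptors for it, Ptger2 and Ptger4 raising cyclic AMP and Ptger3 mainly lowering it. In skin these products are known for effects on blood flow, pain, itch and leukocyte entry.

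The stretches of DNA just before Ptgs2, Ptges and Hpgd are shown because Ptgs2 was the member that passed the test, Ptges is its usual partner enzyme and Hpgd removes their product. Each is the 250 bases before the annotated gene start and the 30 after it, from RefSeq on build GRCm38.p6, at chr1:150099781-150100060 on the plus strand for Ptgs2, chr2:30903268-30903547 on the minus strand for Ptges and chr8:56294302-56294581 on the plus strand for Hpgd. Capitals mark matches, on either strand, to any of 8 searched motifs.
Ptgs2: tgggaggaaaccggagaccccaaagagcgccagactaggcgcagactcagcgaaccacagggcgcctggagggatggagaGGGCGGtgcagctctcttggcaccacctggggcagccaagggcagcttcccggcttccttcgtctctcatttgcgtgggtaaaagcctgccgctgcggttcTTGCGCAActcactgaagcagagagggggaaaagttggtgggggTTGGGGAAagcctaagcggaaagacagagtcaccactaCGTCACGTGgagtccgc
Ptges: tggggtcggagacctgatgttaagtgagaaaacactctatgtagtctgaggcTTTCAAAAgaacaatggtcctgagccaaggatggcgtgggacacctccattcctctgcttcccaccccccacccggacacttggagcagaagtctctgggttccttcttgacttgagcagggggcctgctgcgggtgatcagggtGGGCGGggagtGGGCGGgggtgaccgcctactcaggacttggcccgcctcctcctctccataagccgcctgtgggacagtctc
Hpgd: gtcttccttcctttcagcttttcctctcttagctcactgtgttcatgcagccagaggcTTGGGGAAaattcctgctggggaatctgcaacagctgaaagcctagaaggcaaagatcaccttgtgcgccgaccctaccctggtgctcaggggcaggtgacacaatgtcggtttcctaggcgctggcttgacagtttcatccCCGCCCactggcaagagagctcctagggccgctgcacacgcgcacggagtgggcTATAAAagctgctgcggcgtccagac

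Motifs were counted in windows of 300 bases (250 before the start and 50 after it), which the RefSeq table held for 9 of the 10 genes, Ptgs1 among them. Among these 9, the Ptgs2 window alone held the core of the cyclic AMP response element (CGTCA) and alone held the E-box (CACGTG). The core began at base 264 of the window and the E-box at base 267, so their letters overlap. The core was found in 20.8% of all 32851 windows of the table and the E-box in 7.15%. Matches to the C/EBP motif (TTNNGNAA), a binding site of CCAAT/enhancer-binding proteins, began at bases 182 and 226 of the Ptgs2 window. That motif was in the windows of 5 of the 9 genes and in 40.7% of all windows. The GC box (GGGCGG) was in 5 of 9 and in 35.7% of all windows. The TATA box (TATAAA) was in the windows of Hpgd and Tbxas1 and in 13.6% of all, the CCAAT box (CCAAT) in those of Ptger2 and Ptger4 and in 37.4%, and the AP-1 motif (TGANTCA) in those of Ptgds and Tbxas1 and in 7.81%. The NF-kB motif, searched by its usual consensus, was in the window of Ptgds and in 8.46% of all windows. These matches are descriptions of letters, and binding was not measured.

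The data were normalized log2 expression values, so a difference of 1 is a doubling. The medians of all features on an array lay between 5.81 and 5.99. The mean level of 8 keratinocyte markers (Krt5, Krt14, Krt1, Krt10, Krt15, Trp63, Perp and Dsp) was between 16.1 and 17.2 on every array, so the labelled tissue carried its defining genes. No-stretch replicate 3 and stretch replicate 1 had the lowest array weights (0.58 and 0.55, against 0.76 to 1.58 for the other 7 arrays). Results for the members that rest on these arrays are also given without them. The comparison was fitted with limma over all 19505 genes, and adjusted p-values are by the Benjamini-Hochberg method at 0.05. It called 48 genes (0.246% of those tested), of which 16 were higher with stretch (0.0820%) and 32 lower (0.164%). Leaving out 1 array moved this count between 2 (without stretch replicate 2 or no-stretch replicate 3) and 195 (without stretch replicate 3), with 0 to 102 higher and 2 to 93 lower. The median log2 change of all genes was -0.0034 and moved by less than 0.1 under quantile normalization (0.016) and median centring (0.030).

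At a limma adjusted p under 0.05, 1 of the 9 measured genes was higher with stretch (0.0820% of all genes were) and 0 were lower (0.164% were). The gene that passed was Ptgs2. At an unadjusted limma p under 0.05 there were 3 of the 9, against 13.0% of all genes: Ptgs2 and Tbxas1 were higher (6.92% of all genes were) and Ptger3 was lower (6.07% were). The median log2 change of the other 8 was -0.060, with 4 above 0 and 4 below. The plot of the 9 genes by array shows that the groups were separate for Ptgs2 and overlapped for the other 8. Over all genes, 4.54% had groups that did not overlap, with 2.38% higher and 2.15% lower on every stretched array.

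**Figure D1:**
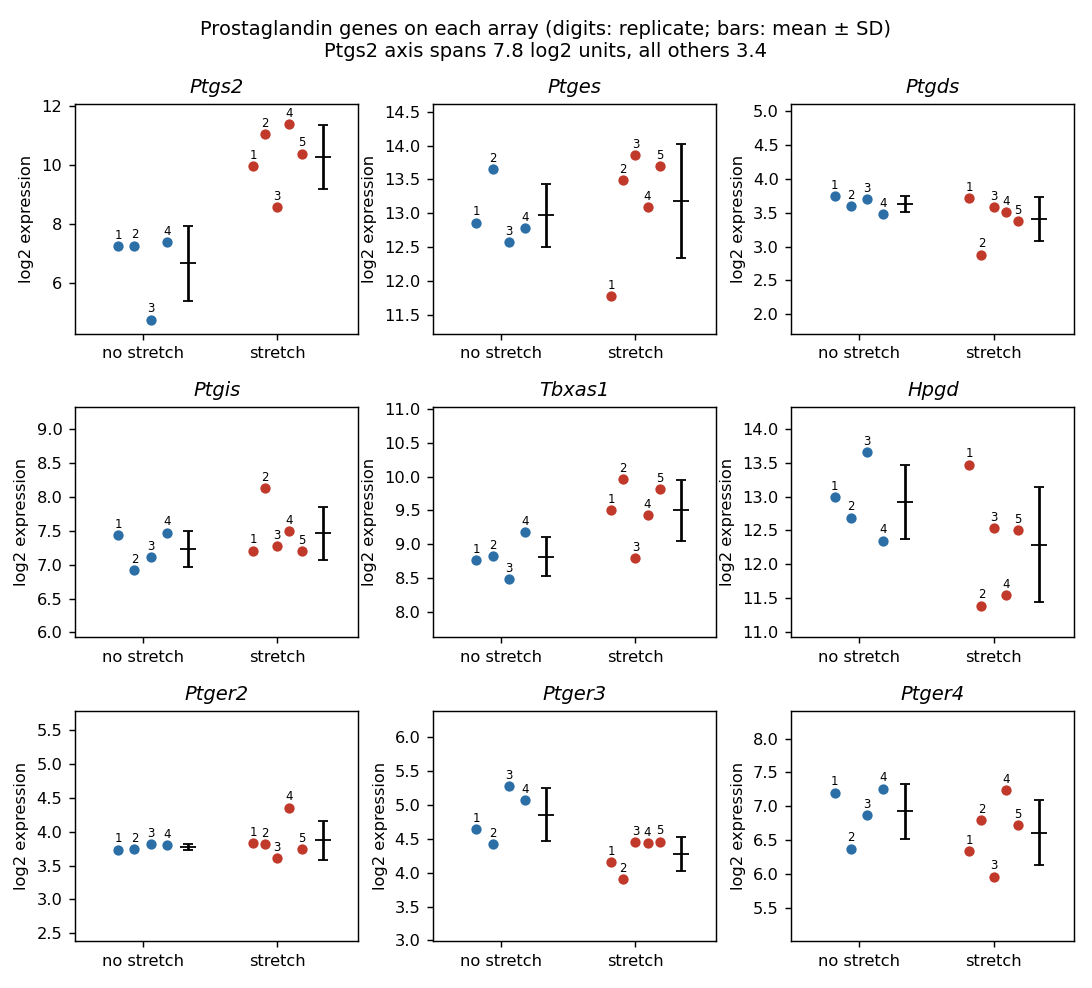
Log2 expression (vertical axes) of the 9 measured genes on each array, without stretch (blue, n = 4) and with stretch (red, n = 5). Digits give the replicate and black bars the mean ± SD. Ptgs2 is the gene whose groups do not overlap, with 8.57 as its lowest stretched value and 7.37 as its highest non-stretched value.

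Ptgs2, the inducible cyclooxygenase, was at 9.94, 11.03, 8.57, 11.39 and 10.38 on the arrays of stretch replicates 1 to 5. It was at 7.23, 7.26, 4.75 and 7.37 on those of no-stretch replicates 1 to 4. Every stretched array was above every non-stretched one, by at least 1.19. Within the stretch group replicates 4 and 2 were high and replicate 3 was low, and 3 of the 4 non-stretched arrays lay within 0.15 of each other while replicate 3 was far below them. The value of 4.75 on no-stretch replicate 3 was below the array medians, and its distance from background was not assessed. The means were 10.26 ± 1.10 (SD, n = 5) and 6.65 ± 1.27 (SD, n = 4), and the log2 change was 3.61 ± 0.63 (SE; 95% confidence interval 2.24 to 4.98, limma adjusted p = 0.045). This was the 10th largest rise of all genes and the 44th smallest p, so among the 48 called genes Ptgs2 lay near the threshold. Its spread within groups (pooled SD 1.18) was larger than that of 99.4% of genes.

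The size of the Ptgs2 rise depended on no-stretch replicate 3, and the call on most arrays. Without that replicate the non-stretched mean was 7.29 ± 0.078 (SD, n = 3), and Ptgs2 was 7.86-fold higher instead of 12.2-fold (log2 change 2.97, limma adjusted p = 0.10). Omitting both no-stretch replicate 3 and stretch replicate 1 gave 8.30-fold (limma adjusted p = 0.087). Of the 9 fits that left out 1 array, Ptgs2 passed in those without stretch replicate 3 (adjusted p = 0.012) and without no-stretch replicate 4 (adjusted p = 0.0495). In the other 7 the adjusted p was between 0.057 and 0.135. The unadjusted p in the 9 fits was between 1.83e-05 and 0.00045 and the log2 change between 2.97 and 4.03. When all 22206 features were tested in place of named genes, the adjusted p of Ptgs2 was 0.055.

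**Figure D2:**
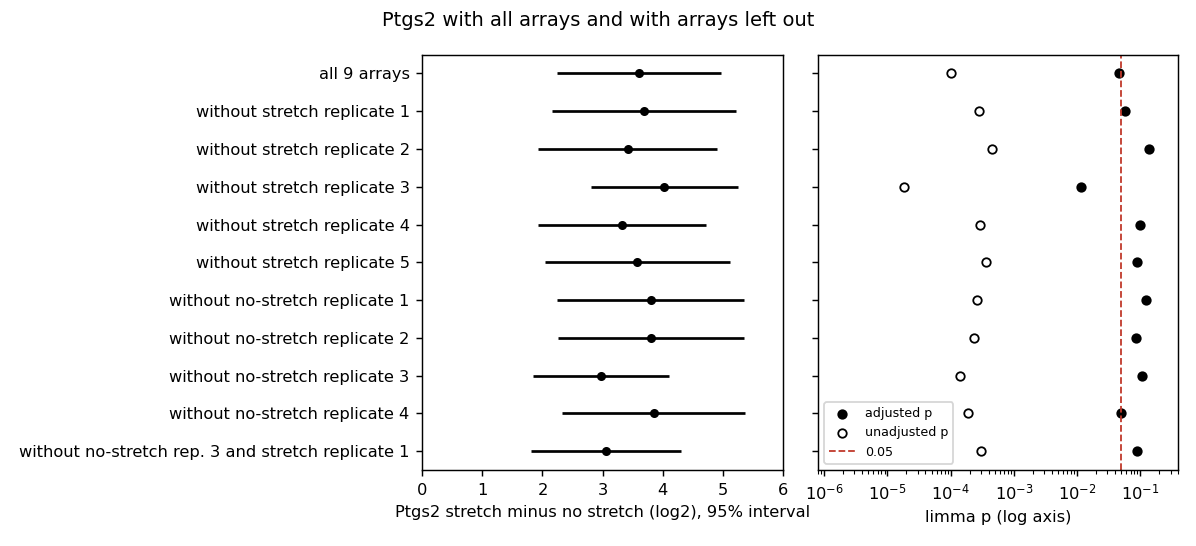
Ptgs2 log2 change, stretch minus no stretch, with its 95% confidence interval (left), and limma p on a log axis (right), for all 9 arrays and with the named arrays left out. The change stays between 2.97 and 4.03, while the adjusted p (filled circles) lies on both sides of 0.05 (dashed line).

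The other member of the prostaglandin E2 branch of synthesis, Ptges, encodes the inducible microsomal synthase that works with Ptgs2. It was at 11.77, 13.49, 13.86, 13.09 and 13.69 on stretch replicates 1 to 5 and at 12.86, 13.65, 12.58 and 12.79 on no-stretch replicates 1 to 4. The groups overlapped, and stretch replicate 1 was the lowest of all 9 arrays. The means were 13.18 ± 0.84 (SD, n = 5) and 12.97 ± 0.47 (SD, n = 4), and the log2 change was 0.21 (95% confidence interval -0.64 to 1.07, limma adjusted p = 0.86). Without stretch replicate 1 the change was 0.57 (limma adjusted p = 0.39). Stretch replicate 1 was also the array with the lowest mean of 8 skeletal muscle markers (13.1, against 14.1 to 14.9 on the other 8). Acta1, Ckm, Myh4, Myh2, Tnnt3 and Des were each lowest there, while Mylpf (17.03) and Pax7 (3.34) were not. The part of muscle content in the Ptges values was not tested. In tissue RNA, more cells of a type and more RNA per cell cannot be told apart.

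The difference in response between Ptgs2 and Ptges was tested on the log2 value of Ptgs2 minus that of Ptges on each array, which follows unequal change and not which of both genes is more abundant. It was between -5.29 and -1.70 with stretch and between -7.83 and -5.41 without. All 5 stretched arrays were above all 4 non-stretched ones. The shift was 3.39 (two-sided exact permutation p = 0.016 over 126 splits; Benjamini-Hochberg adjustment over the 2 such differences computed left it at 0.016). A p of 0.016 is the smallest that this two-sided test allows with 5 and 4 arrays, and any complete separation gives it. The shift of 3.39 is largely the Ptgs2 change of 3.61, which separates the groups by itself, beside 0.21 for Ptges. Without no-stretch replicate 3 and stretch replicate 1 the shift was 2.62, with an exact p of 0.057. That is the smallest p the remaining arrays allow, so the test could not pass there, and the groups stayed separate.

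Of the other terminal synthases, Tbxas1, the thromboxane synthase of platelets and macrophages, had the largest change. It was at 9.51, 9.96, 8.80, 9.43 and 9.81 on stretch replicates 1 to 5 and at 8.76, 8.82, 8.49 and 9.18 on no-stretch replicates 1 to 4. On 4 of the 5 stretched arrays it was above every non-stretched one, and stretch replicate 3 lay among them. The means were 9.50 ± 0.45 (SD, n = 5) and 8.81 ± 0.29 (SD, n = 4). The log2 change was 0.69 (95% confidence interval 0.16 to 1.21) and missed the threshold (limma adjusted p = 0.25). Without stretch replicate 3 it was 0.86 (limma adjusted p = 0.076). Macrophages express Tbxas1, and 6 of 7 macrophage and monocyte markers had a positive change with 0 past the threshold. The mean level of those 7 was 12.7 to 14.3 with stretch and 12.6 to 13.7 without, lowest on replicate 3 of each group and highest without stretch on replicate 4, as for Tbxas1. With stretch the markers were highest on replicates 4 and 1 and Tbxas1 on replicates 2 and 5. Their part in the Tbxas1 values was not tested.

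Ptgis, the prostacyclin synthase of endothelium and smooth muscle, was at 7.21, 8.13, 7.27, 7.50 and 7.20 with stretch and at 7.44, 6.92, 7.11 and 7.47 without. Stretch replicate 2 was the highest array and the other 4 stretched arrays fell in or beside the non-stretched range. The log2 change was 0.22 (95% confidence interval -0.26 to 0.71, limma adjusted p = 0.71), and it was 0.057 without stretch replicate 2. Ptgds, the lipocalin-type prostaglandin D synthase, was at 2.88 to 3.72 with stretch and at 3.48 to 3.74 without. These values are far below the array medians, and whether they exceed background was not assessed. Its log2 change was -0.22 (95% confidence interval -0.63 to 0.19, limma adjusted p = 0.66), with the lowest value on stretch replicate 2, without which the change was -0.086.

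Hpgd, the dehydrogenase that inactivates prostaglandin E2, was at 13.47, 11.39, 12.54, 11.55 and 12.51 on stretch replicates 1 to 5. It was at 12.99, 12.69, 13.65 and 12.35 on no-stretch replicates 1 to 4. Stretch replicates 2 and 4 were below every non-stretched array, and stretch replicate 1 was above all but no-stretch replicate 3. The means were 12.29 ± 0.85 (SD, n = 5) and 12.92 ± 0.55 (SD, n = 4). The log2 change was -0.63 (95% confidence interval -1.52 to 0.26, limma adjusted p = 0.55). The change was -0.39 without no-stretch replicate 3 and -0.93 without stretch replicate 1.

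Within each group Hpgd was lowest where Ptgs2 was highest or next to highest. Stretch replicates 4 and 2 had the 2 highest Ptgs2 values and the 2 lowest Hpgd values of all 9 arrays. No-stretch replicate 3 had the lowest Ptgs2 value and the highest Hpgd value. No correlation is given, since Ptgs2 separates the arrays into their groups and neither group has 6 arrays. The log2 value of Ptgs2 minus that of Hpgd was -3.53, -0.36, -3.97, -0.16 and -2.13 with stretch and -5.76, -5.43, -8.90 and -4.97 without. Every stretched array was above every non-stretched one. This difference shifted by 4.24 with stretch (two-sided exact permutation p = 0.016, and 0.016 after adjustment over the 2 differences). That p is the smallest that 5 and 4 arrays allow. Most of the shift is the Ptgs2 change of 3.61 already given, beside -0.63 for Hpgd, which did not pass by itself. Without no-stretch replicate 3 and stretch replicate 1 the shift was 3.74 and the exact p was 0.057, again the smallest that the remaining arrays allow.

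**Figure D3:**
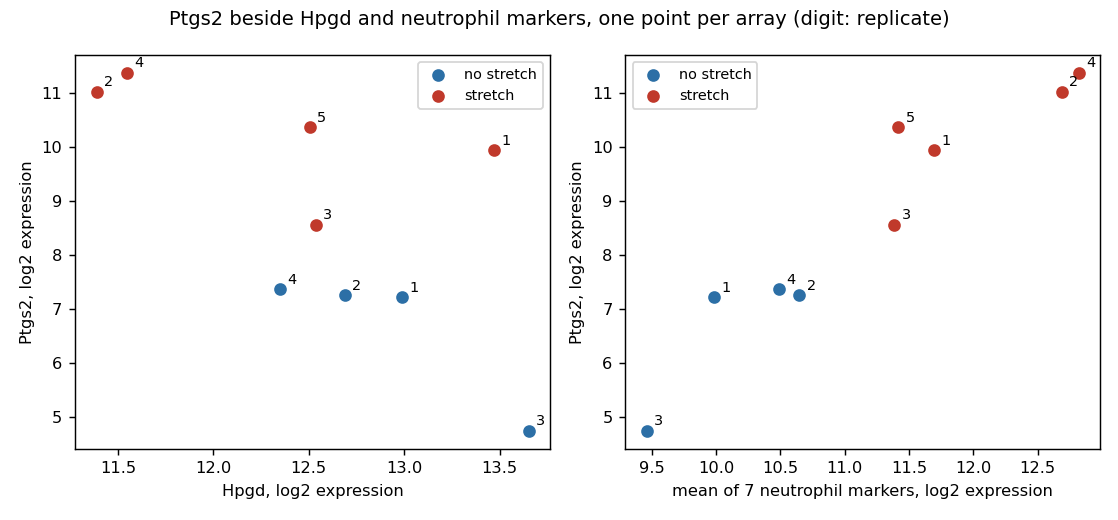
Log2 expression of Ptgs2 (vertical axes) against Hpgd (left) and against the mean of 7 neutrophil markers (right), 1 point per array, blue without and red with stretch, digits giving the replicate. Stretch replicates 4 and 2 lie at high Ptgs2 and low Hpgd, and no-stretch replicate 3 at the opposite end. Neutrophil marker means are 11.4 to 12.8 with stretch and 9.46 to 10.6 without.

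The levels of neutrophil markers are given beside Ptgs2, since their mean was also separate between the groups. All 7 measured markers of 8 listed (S100a8, S100a9, Csf3r, Cxcr2, Mmp8, Mmp9 and Retnlg) had a positive change, with 0 past the threshold, 5 at an unadjusted limma p under 0.05 (6.92% of all genes were higher at that p) and a median log2 change of 1.74. The mean of the 7 was 11.4 to 12.8 with stretch and 9.46 to 10.6 without, so it did not overlap (2.38% of single genes were higher without overlap, 3 of these 7 among them). Its highest array was stretch replicate 4 and its lowest no-stretch replicate 3, which are also the highest and lowest arrays for Ptgs2. Single markers departed from that order: S100a8 and S100a9 were highest on stretch replicate 3 (19.31 and 19.02), where Ptgs2 was lowest of the stretched arrays, and S100a8 was lowest on no-stretch replicate 4 (16.85), where Ptgs2 was highest of the non-stretched ones. The lowest of the 7 in mean level over all 9 arrays was at 6.52. Without stretch Retnlg was at 4.77 to 6.57 and Mmp9 at 4.93 to 6.16. These ranges reach below the array medians, and their distance from background was not assessed. Retnlg, a resistin-like protein of neutrophils, had a log2 change of 4.54 and Mmp9, a gelatinase, of 1.74 (limma adjusted p = 0.081 and 0.070). The part of neutrophil content in the Ptgs2 values was not tested.

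The receptors of prostaglandin E2 did not pass the test. Ptger3 encodes the receptor EP3. It was at 4.16, 3.90, 4.45, 4.43 and 4.46 with stretch and at 4.64, 4.43, 5.28 and 5.08 without. The overlap was narrow: no-stretch replicate 2 lay just below stretch replicates 3, 4 and 5. The means were 4.28 ± 0.25 (SD, n = 5) and 4.86 ± 0.39 (SD, n = 4). The log2 change was -0.58 (95% confidence interval -1.04 to -0.12, limma adjusted p = 0.27). Leaving out the highest array, no-stretch replicate 3, gave -0.44, and without that array and stretch replicate 1 it was -0.40.

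Ptger4 encodes the receptor EP4. It was at 6.34, 6.80, 5.96, 7.24 and 6.72 with stretch and at 7.20, 6.38, 6.87 and 7.26 without, and the groups overlapped over most of their range. Its log2 change was -0.31 (95% confidence interval -0.90 to 0.28, limma adjusted p = 0.66). Ptger2, for the receptor EP2, was at 3.83, 3.82, 3.61, 4.36 and 3.74 with stretch and within 3.74 to 3.82 on all 4 non-stretched arrays. One stretched array, replicate 4, which also had the highest Ptgs2, stood above the rest. The log2 change was 0.099 (95% confidence interval -0.28 to 0.48, limma adjusted p = 0.85) and turned to -0.023 without that array. Ptger2 and Ptger3 were below the array medians, and their distance from background was not assessed.

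The genes around this set were listed by function. Of 19 further prostanoid genes 18 were measured, Akr1b3 having no named feature. None of the 18 passed over all genes with limma, and 3 had an unadjusted p under 0.05, 2 higher and 1 lower, a share near the 13.0% of all genes. Their median log2 change was -0.049 with a range of -0.73 to 0.64, against -0.0034 for all genes. Ptges2, a second membrane-associated prostaglandin E synthase, was at 7.73 to 8.05 with stretch and 7.22 to 7.59 without, without overlap (log2 change 0.47, limma adjusted p = 0.21). Ptges3, the cytosolic synthase that is also the co-chaperone p23, had a log2 change of 0.44 (limma adjusted p = 0.35). Abcc4, a transporter that exports prostaglandins, was at 8.44 to 8.94 with stretch and 8.94 to 9.96 without (log2 change -0.66, limma adjusted p = 0.23). Ptgfr, the prostaglandin F receptor, had one of 0.64 (limma adjusted p = 0.43).

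Genes that supply or withhold arachidonic acid numbered 18 measured of 19, Pla2g4b having no named feature. None passed over all genes with limma, 4 were higher and 3 lower at an unadjusted p under 0.05 (6.92% and 6.07% of all genes), and the median log2 change was -0.060. Mgll, the monoacylglycerol lipase that releases arachidonic acid from an endocannabinoid and also acts in fat cells, had the largest change of the list. It was at 7.86, 7.15, 8.11, 6.49 and 7.44 with stretch and at 9.86, 9.26, 9.12 and 8.20 without. The groups did not overlap, with a gap of 0.097 between stretch replicate 3 and no-stretch replicate 4. The log2 change was -1.70 (95% confidence interval -2.50 to -0.90, limma adjusted p = 0.081). Mgll passed without stretch replicate 3 or without no-stretch replicate 4 (adjusted p down to 0.043) and in none of the other 7 fits that left out 1 array. Of 6 adipocyte markers 5 had a negative change, 0 passed, and Fabp4 was at 0.043 on the log2 scale of change. Their mean level was 9.62 to 10.5 with stretch and 10.6 to 11.2 without. Of the adipocyte markers, Plin1, a lipid droplet protein, had a log2 change of -1.51 (limma adjusted p = 0.053) and Adipoq, adiponectin, of -1.75 (limma adjusted p = 0.076). Within the groups the marker mean was highest on stretch replicate 5 and no-stretch replicate 3, and Mgll on stretch replicate 3 and no-stretch replicate 1. Both were lowest without stretch on replicate 4. With stretch the marker mean was lowest on replicate 2 and Mgll on replicate 4, with replicate 2 next. The part of fat cells in the Mgll values was not tested.

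Faah, the hydrolase of another arachidonate-containing lipid, had a log2 change of -0.94 (limma adjusted p = 0.22), and of -0.74 without no-stretch replicate 3. Pla2g2d, a secreted phospholipase of dendritic cells and macrophages, had one of -0.71 (limma adjusted p = 0.24). Pla2g4d, a phospholipase of the cytosolic family found in inflamed epidermis, had a log2 change of 1.08 (limma adjusted p = 0.23), and of 0.78 without no-stretch replicate 3. It was at 3.96 to 5.47 with stretch and 2.70 to 4.21 without. These values lay below the array medians, and their distance from background was not assessed. Pla2g4a, the cytosolic phospholipase that feeds the cyclooxygenases in most cells, was outside the rule for naming genes and was chosen after its values were seen. It was at 11.62, 10.09, 10.61, 10.90 and 10.34 with stretch and at 10.28, 9.60, 9.83 and 10.04 without, so the groups overlapped at stretch replicate 2. Its log2 change was 0.78 (95% confidence interval 0.16 to 1.40, limma adjusted p = 0.27). Pla2g4a was highest on stretch replicate 1 (11.62), and its change without that array is not given.

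**Figure D4:**
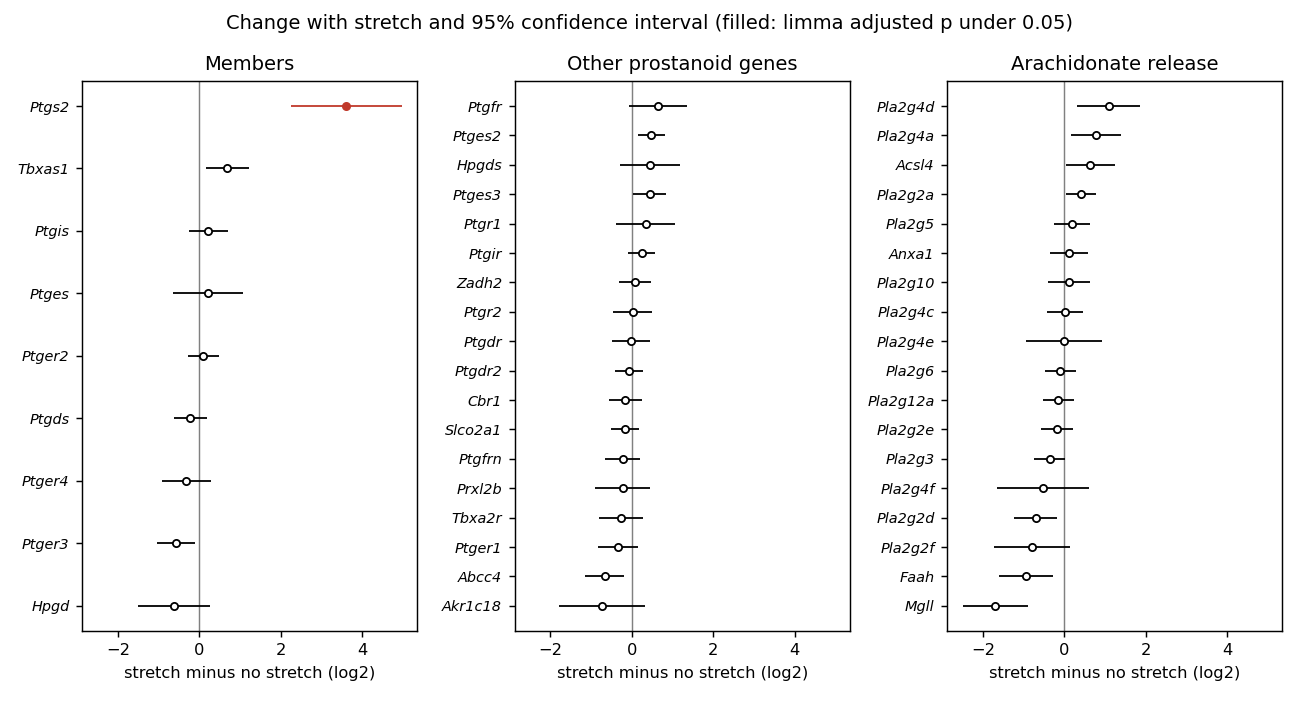
Log2 change, stretch minus no stretch (horizontal axes), with 95% confidence intervals from limma for the 9 measured genes (left), 18 other prostanoid genes (middle) and 18 arachidonate release genes (right). Ptgs2 at 3.61 is the one filled point, past an adjusted p of 0.05, and Mgll at -1.70 is the lowest.

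The last list held 13 genes for transcription factors and RNA-binding proteins known to act on Ptgs2, all measured. None passed over all genes with limma, 2 were higher and 0 lower at an unadjusted p under 0.05, near the 13.0% of all genes, and the median log2 change was 0.034. The 2 were Cebpb and Cebpd, which encode C/EBP proteins. Cebpb was at 8.99 to 9.75 with stretch and 8.02 to 9.11 without (log2 change 0.82, limma adjusted p = 0.20). Cebpd was at 9.87 to 11.32 with stretch and 9.72 to 10.47 without (log2 change 0.75, limma adjusted p = 0.28). Creb1, which binds the cyclic AMP response element, had a log2 change of -0.18, and Usf1 and Usf2, which bind the E-box, of 0.009 and 0.034 (limma adjusted p = 0.78, 0.99 and 0.95). These 3 were chosen after their values were seen. Nfatc2, a calcium-regulated transcription factor, was at -0.30 on this scale and Celf2, an RNA-binding protein, at 0.41 (limma adjusted p = 0.53 and 0.59), and Celf2 was at 0.11 without no-stretch replicate 3.

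The genes whose pattern over the 9 arrays was most like that of Ptgs2 were sought by the root mean square distance between log2 values, each gene centred on its own mean. The nearest were Nlrp3, an inflammasome sensor (distance 0.64), Prg4, lubricin (0.65), Ccl3, a chemokine of myeloid cells (0.66), Acod1, the itaconate-producing enzyme of activated macrophages (0.66), and Ccrl2, a chemerin-binding receptor (0.67). The median distance of all genes from Ptgs2 was 2.09. The 5 had log2 changes between 2.69 and 3.99, and none passed (limma adjusted p between 0.066 and 0.19). The likeness includes the group difference itself and is a description.

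The other members had different neighbours. Nearest to Ptges were Myl1 and Myh1, both of the skeletal muscle sarcomere (distances 0.17 and 0.21), and Plcd1 (0.23), against a median of 0.70 for all genes. Nearest to Tbxas1 were Rrm2, a subunit of ribonucleotide reductase (0.16), Ap2s1 (0.19) and Septin11 (0.20). Nearest to Hpgd were Acp6 (0.30), Tmprss11f (0.31) and Serpinb7 (0.32), to Ptger3 Phldb1 (0.13), Tbx4 (0.14) and Armc9 (0.15), and to Ptger4 Fam114a1 (0.13), Lama4 (0.15) and Gzmg (0.16). Nearest to Ptgis were Tmem145 (0.12), Olfr960 (0.13) and Bex3 (0.13), each high on stretch replicate 2 like Ptgis itself. On the stretched arrays Tmem145 and Olfr960 reached 4.36 and 3.74 at most, below the array medians. Their distance from background was not assessed. Nearest to Ptgds were Esp18 (0.086), Elapor2 (0.10) and Vmn1r60 (0.10), and to Ptger2 Dusp27 (0.088), Znrf1 (0.089) and 3110082I17Rik (0.091). Ptgds and Ptger2 varied little, with SDs of 0.27 and 0.21 over the 9 arrays, so that short distances to them say little.

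Of the other cells that make prostanoids, fibroblasts and mast cells had markers whose mean levels were below the non-stretched range on every stretched array. All 7 fibroblast markers measured of 8 had a negative change, and 1, Dpt, passed (log2 change -2.30, limma adjusted p = 0.025). Col1a2, a chain of type I collagen, had a log2 change of -0.82 (limma adjusted p = 0.077). Their mean level was 13.4 to 13.9 with stretch and 14.4 to 14.6 without. Of 8 mast cell markers 6 had a negative change and 0 passed, and their mean level was 5.27 to 5.51 with stretch and 5.64 to 5.80 without. These mast cell means lay below the array medians, and their distance from background was not assessed. Taken singly, 3 of the 7 fibroblast and 1 of the 8 mast cell markers were lower without overlap, against 2.15% of all genes. Cpa3, the mast cell carboxypeptidase, had a log2 change of -1.35 and Mcpt4, a chymase, of -0.91 (limma adjusted p = 0.084 and 0.27). The remaining mast cell markers had log2 changes between -0.25 (Tpsab1) and 0.086 (Fcer1a). The lower mast cell mean therefore rested mostly on Cpa3 and Mcpt4. Of 8 endothelial and mural markers 5 had a positive change and 0 passed, with overlapping mean levels (8.88 to 9.75 with stretch and 8.89 to 9.53 without). Tek, an endothelial receptor, had a log2 change of -0.84 and Kdr, a vascular growth factor receptor, of 0.78 (limma adjusted p = 0.078 and 0.33). The part of these cell types in the values of Ptgds, Ptgis and Ptger3 was not tested.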

How the data were processed

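Expression was measured in skin RNA (6 ug per labelling) on Affymetrix arrays, per the labels' protocols. The deposited values were log2 expression per transcript cluster for 22206 features on 9 arrays. Per the submitters' processing notes, they were made with RMA and Transcriptome Analysis Console (versions not named). RMA commonly compresses low values, which understates changes of dim genes. No build, annotation or filter is given in the sources used here. Detection calls were not used here.

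Platform annotation named 19572 features with 1 symbol and left 2634 unnamed. Where features shared a symbol (55 genes), the one of highest mean was kept. Stretch and no stretch were compared in limma 3.58.1 (R 4.3.3; lmFit, then eBayes; two-sided, no covariate). The code was tested on simulated data. Exact permutations used scipy 1.17.1. The number of arrays limits precision (median standard error 0.21).

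The members, lists and tests were chosen with earlier results of these data known. Named genes were all members, pathway genes past the threshold and the 4 others of smallest p per list, up to 2 markers per cell type, and the 5 genes nearest Ptgs2 and 3 nearest each other member. Of the remaining marker lists, melanocytes had 2 of 6 lower (Pmel and Dct, log2 changes -1.40 and -2.25, limma adjusted p = 0.026 and 0.031), skeletal muscle 0 of 8 and keratinocytes 0 of 8 past the threshold. Alternatives covered normalization, a filter on dim genes, feature choice, the variance model, array weights, a replicate block and leaving out arrays. Leaving out 2 arrays together was chosen after seeing the data.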

Additional observations from a re-analysis of the deposited data

Results flagged for a closer look

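Of the values above, 11 stood far from the rest of their group of 4 or 5 arrays by Dixon's criterion, among 140 groups examined. For groups not chosen by their values the criterion flags about 1 in 20. The genes examined include some picked by p or by likeness to a member over the same arrays, so that rate is no yardstick here. Elapor2, Tmem145, Olfr960, Bex3, Rrm2, Acp6 and 3110082I17Rik were picked by likeness. No-stretch replicate 3 was lowest for Ptgs2 (4.75, against 7.23 to 7.37 on the other 3), Celf2 (10.31, against 11.41 to 11.57) and Rrm2 (9.34, against 9.86 to 9.89), and highest for Acp6 (7.76, against 6.81 to 6.96). Stretch replicate 2 was highest for Tmem145 (4.36), Olfr960 (3.74) and Bex3 (9.01) and lowest for Elapor2 (3.38). Stretch replicate 1 was lowest for Tek (6.28, against 6.75 to 6.81). No-stretch replicate 4 was highest for Col1a2 (16.11, against 15.70 to 15.74), and no-stretch replicate 2 lowest for 3110082I17Rik (6.67, against 6.98 to 7.01).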

How the results depend on the processing

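The log2 change of Ptgs2 was between 2.97 and 4.03 over 18 alternatives. It missed the threshold when all features were tested (3.61), without no-stretch replicate 3 and stretch replicate 1 (3.05) and in 7 of the 9 fits without 1 array (2.97 to 4.03 over the 9). Ptger2 ranged from -0.023 to 0.16 without 1 array and was below 0 without stretch replicate 4. The other 7 members kept their direction and stayed short of the threshold; the filter on dim genes left out Ptgds and Ptger2. Genes past the threshold numbered 105 with that filter (43 higher, 62 lower), 157 with array weights (70 and 87), 15 without both arrays (8 and 7), and 2 to 195 without 1 array (0 to 102 and 2 to 93).

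Whether the replicate numbers pair the samples was not settled. Over all genes, deviations of same-numbered arrays correlated at -0.062, -0.018, 0.064 and 0.34, and 1 of 4 matched its own number best. Ptgs2 was lowest on replicate 3 and highest on replicate 4 in both groups. With the numbers as a replicate block 221 genes passed (120 higher, 101 lower). Ptgs2 was among them (log2 change 3.58 ± 0.25, SE, limma adjusted p = 0.0029). Under the block 1 arachidonate release gene, Mgll, passed, as in 2 of the fits without 1 array (range 0 to 1). With the pairing, exact sign flips gave shifts of 4.26 for Ptgs2 minus Hpgd and 3.49 for Ptgs2 minus Ptges, at p = 0.125, the smallest that 4 pairs allow. Without both arrays these shifts were 3.74 and 2.62 (exact p = 0.057). Without 1 array they were 3.36 to 4.72 and 2.89 to 3.99, with exact p between 0.029 and 0.036. Each of these p-values is the smallest that the remaining arrays allow, so they follow the number of arrays. The difference between Ptgs2 and Ptgs1 was not run, since no feature was named Ptgs1.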
